A study of Mus musculus with 6 samples.

Results

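The Ifitm genes encode small interferon-induced membrane proteins, and the 5 described here are Ifitm1, Ifitm2, Ifitm3, Ifitm6 and Ifitm10, out of 24453 gene symbols with a value. They were chosen by name, and for each symbol the transcript with the highest mean RPKM over the 6 libraries was kept, a choice that uses levels and not the difference between the groups. RPKM here means reads per kilobase of exons and per 10000000 counted reads. The libraries come from sorted CD4+Foxp3+ regulatory T cells (Treg cells), which hold immune responses in check, of healthy female C57BL/6 mice. There were 3 libraries labelled miR-27 Tg, with the miR-27a transgene that the series text describes as specific to Treg cells, and 3 control libraries titled WT, whose genotype label reads WT Tg. The series title adds Foxp3cre het for these mice. Foxp3 lies on the X chromosome, so a female heterozygous for a Cre at that locus is a mosaic of cells with and without it. Whether the controls carry the Cre, whether the sort was limited to Cre-positive cells, and how old the mice were are not given in these sources, nor is pooling of animals. No label ties a library to a mouse of its own. The p-values therefore speak of library-to-library spread, and part or all of that spread could be technical.

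IFITM proteins sit in the plasma membrane and in endosomes, where they hinder the fusion of enveloped viruses with the cell. Interferons bind their receptors, the kinases Jak1 and Tyk2 activate transcription factors such as Stat2, and Stat2 with Irf9 acts in a complex that binds interferon-stimulated response elements in the promoters of their targets. Ifitm3 is the member best known for restricting influenza virus and acts mainly in endosomes, Ifitm2 is its close relative, and Ifitm1 is found more at the cell surface. Ifitm6 is known in mice from cells of the myeloid lineage, and little is known of Ifitm10.

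The microRNA of the transgene and the promoter stretches that differ between the members are shown first. The seed of the microRNA, bases 2 to 8, is in capitals in the RNA line. In the DNA lines capitals mark the response element core in Ifitm3 and Ifitm2, and the gamma-activated site core in Ifitm6, as defined after the lines. All are from RefSeq on GRCm38.p6, the assembly that mm10 names.
mmu-miR-27a-3p: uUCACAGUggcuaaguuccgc
Ifitm3: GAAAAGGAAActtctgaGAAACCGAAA
Ifitm2: accaacagGAAAAGGAAAttgctagag
Ifitm6: catatgaacTTCCTTGAAacaagagct
The Ifitm3 stretch lies at chr7:141010716-141010742 on the minus strand, from base 3 to base 29 of the transcript. The Ifitm2 stretch lies at chr7:140955989-140956015, also on the minus strand, 54 to 28 bases before the annotated start. The Ifitm6 stretch lies at chr7:141016885-141016911, on the minus strand, and spans the annotated start. The window searched for each gene ran from 250 bases before to 50 bases after its annotated start, on both strands. The core of the interferon-stimulated response element, GAAA followed by any 2 bases and GAAA, matched at 2 places in Ifitm3 and at 1 in Ifitm2, and the same 10 bases, GAAAAGGAAA, occur in both. It did not match in the windows of Ifitm1, Ifitm6 and Ifitm10. The core of the gamma-activated site, TTCNNNGAA, matched in Ifitm6 and in Ifitm3, there at bases 14 to 22, which overlap the second response element core and are not marked as a match of their own. The window given for Ifitm1 belongs to the start of its other transcript, NM_001112715, and Ifitm10 has 3 windows.

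**Figure D1:**
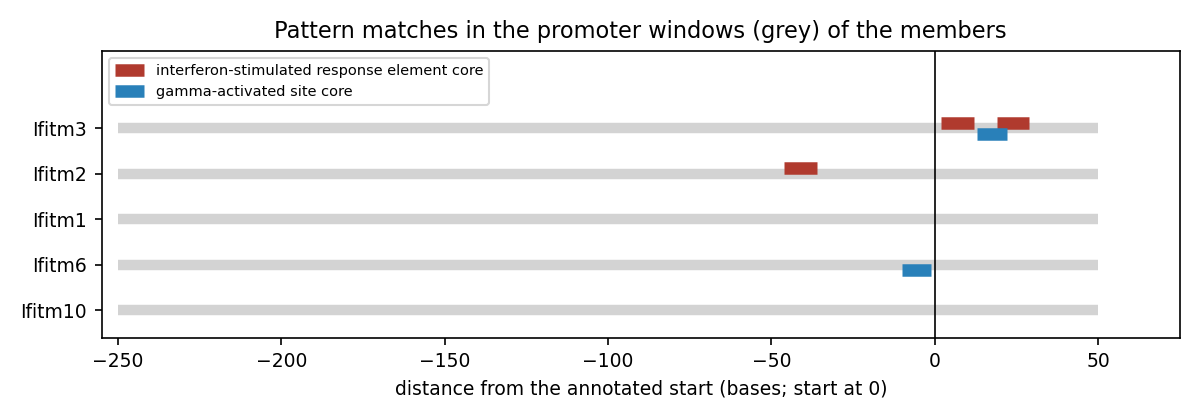
Matches of the 2 patterns in the promoter windows of the 5 genes; the x axis is the distance in bases from the annotated start, grey bars are the windows searched and coloured bars are matches. The 2 response element cores of Ifitm3 lie just after the start, that of Ifitm2 lies before it, and the windows of Ifitm1 and Ifitm10 hold no match.

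At least 1 window of 2 of the 5 members held the response element core, and likewise 2 of 5 the gamma-activated site core. The response element core occurred in 3.44% of all 32851 promoter windows, and in at least 1 window of 3.99% of 27025 genes. TTCNNNGAA occurred in 8.30% of the windows, and in at least 1 window of 9.55% of the genes. Among 30 other antiviral interferon-induced genes (named below), 21 had a window. Of these 21, 10 held the response element core and 7 held TTCNNNGAA. A match is a run of letters and not a measured binding site. The match to the miR-27 seed did not occur in the 3′ UTRs of Ifitm1, Ifitm2, Ifitm3 and Ifitm6, which have 199, 148, 139 and 298 bases, and it occurred at 1 place in the 2433 bases of Ifitm10. It occurred in 15.5% of the longest 3′ UTRs of 21806 genes and in 2.62% of those of 100 to 300 bases.

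Ifitm1, Ifitm2, Ifitm3 and Ifitm6 lie together within 62.1 kb of mouse chromosome 7, and Ifitm10 starts 1355 kb away from Ifitm6 on the same chromosome. In mm10, Ifitm2 (NM_030694) spans chr7:140954839-140955961, Ifitm1 (NM_026820) chr7:140967429-140969827, Ifitm3 (NM_025378) chr7:141009590-141010744, Ifitm6 (NM_001033632) chr7:141015812-141016892 and Ifitm10 (NM_177265) chr7:142326110-142372259. Ifitm1 is on the plus strand and the other members on the minus strand. Coding sequences of Ifitm1, Ifitm2 and Ifitm3 were 80.8% to 81.9% identical in pairs over the aligned bases, Ifitm6 was 69.7% to 70.3% identical to them, and Ifitm10 was 65.2% to 71.0% identical to the other 4. Of the 50-base stretches of the Ifitm3 transcript 10.02% also occur in transcripts of other genes, against 48.5% for Ifitm2, 6.36% for Ifitm1, 5.0% for Ifitm10 and 0 for Ifitm6. Those shared by Ifitm2 include Gm45717, a predicted gene whose exons cover 40.9% of the exonic bases of Ifitm2, so Ifitm2 shares the largest part of its sequence among the 5 members. How the authors treated reads with several positions is not stated in the labels or headers.

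Counted reads, summed over all 34711 transcripts, numbered 34437235 to 38080063 in miR-27 Tg and 37677494 to 42061172 in WT. As 5612 symbols have several transcripts, a read on shared exons can enter this sum more than once, so it is not the sequencing depth. The hairpin Mir27a had 2921, 2206 and 2339 reads in miR-27 Tg replicates 1 to 3, against 9, 13 and 8 in WT replicates 1 to 3, so every library matched its label. By limma at an adjusted p below 0.05, 51 of 13621 genes tested rose in miR-27 Tg and 89 fell. Each library left out lowered these counts by over 1.5 times, to between 3 and 14 higher and between 1 and 44 lower. None of the 11 T cell and Treg markers (0 of 11) passed by limma, while 3 reached an unadjusted p below 0.05, all lower in miR-27 Tg (1773 of 13621 in either direction over all genes tested). The 11 log2 fold changes were above 0 for 4 markers and below 0 for 7, with a median of -0.16. Their summed level was 15746 to 17341 RPKM in miR-27 Tg and 17808 to 19113 in WT, with Cd3g averaging 2911 and 3252 RPKM and Ctla4 2335 and 3436 RPKM. Foxp3, the factor that defines Treg cells, had 774 to 955 RPKM in miR-27 Tg and 662 to 830 RPKM in WT.

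Ifitm3 was the member that rose. It had 55.0, 86.6 and 70.8 RPKM in miR-27 Tg replicates 1 to 3, against 14.8, 16.6 and 30.1 RPKM in WT replicates 1 to 3. The groups did not overlap, and the highest WT library, replicate 3, was closest to the lowest miR-27 Tg library, replicate 1. These values rest on 135, 192 and 157 reads in miR-27 Tg and on 40, 42 and 73 reads in WT. Mean levels were 70.8 ± 15.8 RPKM in miR-27 Tg and 20.5 ± 8.37 RPKM in WT (SD, n = 3 each), a ratio of 3.46. On the log2(RPKM + 1) scale, which understates changes of low genes, the difference was 1.78 (SE 0.27, adjusted p = 0.0326 by limma over 13621 genes), which ranks 22 from the top among all genes tested. The result for Ifitm3 was known when the 5 genes were chosen, so it describes the gene and adds no independent support. The log2 fold change was 1.60 to 2.08 with any 1 library left out, and none of these 6 fits kept the call (limma adjusted p from 0.0530 to 0.138).

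Ifitm2 had 38.4, 40.5 and 25.2 RPKM in miR-27 Tg replicates 1 to 3 and 17.9, 28.2 and 19.6 RPKM in WT replicates 1 to 3. The groups overlapped, since miR-27 Tg replicate 3 was below WT replicate 2. The reads numbered 91, 87 and 54 in miR-27 Tg and 47, 69 and 46 in WT. The mean was 34.7 ± 8.32 RPKM in miR-27 Tg and 21.9 ± 5.48 RPKM in WT (log2 fold change 0.64, SE 0.23, adjusted p = 0.287 by limma).

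Ifitm1 had 5.48, 9.52 and 6.49 RPKM in miR-27 Tg replicates 1 to 3 and 3.90, 4.55 and 1.98 RPKM in WT replicates 1 to 3. The groups did not overlap, but the values rest on 14, 22 and 15 reads in miR-27 Tg and on 11, 12 and 5 reads in WT. Its log2 fold change was 0.89 (SE 0.30, adjusted p = 0.255 by limma), which did not pass. The other transcript of Ifitm1, NM_001112715, which starts further downstream and shares reads with the first, had 5.64, 8.32 and 4.58 RPKM in miR-27 Tg and 3.75, 3.28 and 1.90 RPKM in WT.

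Ifitm6 was near the limit of detection, and Ifitm10 had a low RPKM. Ifitm6 had 1.47, 9.19 and 3.25 RPKM in miR-27 Tg replicates 1 to 3 and 0, 2.37 and 2.47 RPKM in WT replicates 1 to 3. The reads numbered 3, 17 and 6 in miR-27 Tg and 0, 5 and 5 in WT, and a count of 0 in WT replicate 1 allows up to 1.33 RPKM, the value of 3 reads, a limit that covers counting error only. The groups overlapped, and miR-27 Tg replicate 2 was far above the rest. The log2 fold change of Ifitm6 was 1.06 (SE 0.63, adjusted p = 0.564 by limma). It was 0.51 without miR-27 Tg replicate 2, 0.47 without WT replicate 1, and 1.14 to 1.54 with any other library left out. With the myeloid and neutrophil marker level as a covariate it was 0.17 (SE 1.03), where that level itself separates the groups. Ifitm10 had 1.06, 1.80 and 0.630 RPKM in miR-27 Tg and 0.811, 0.710 and 0.906 RPKM in WT. On its transcript of 3224 bases these are 13, 20 and 7 reads in miR-27 Tg and 11, 9 and 11 reads in WT. Its mean over all libraries, 0.986 RPKM, was just under the minimum of 1 RPKM, so it was not tested, and its groups overlapped.

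**Figure D2:**
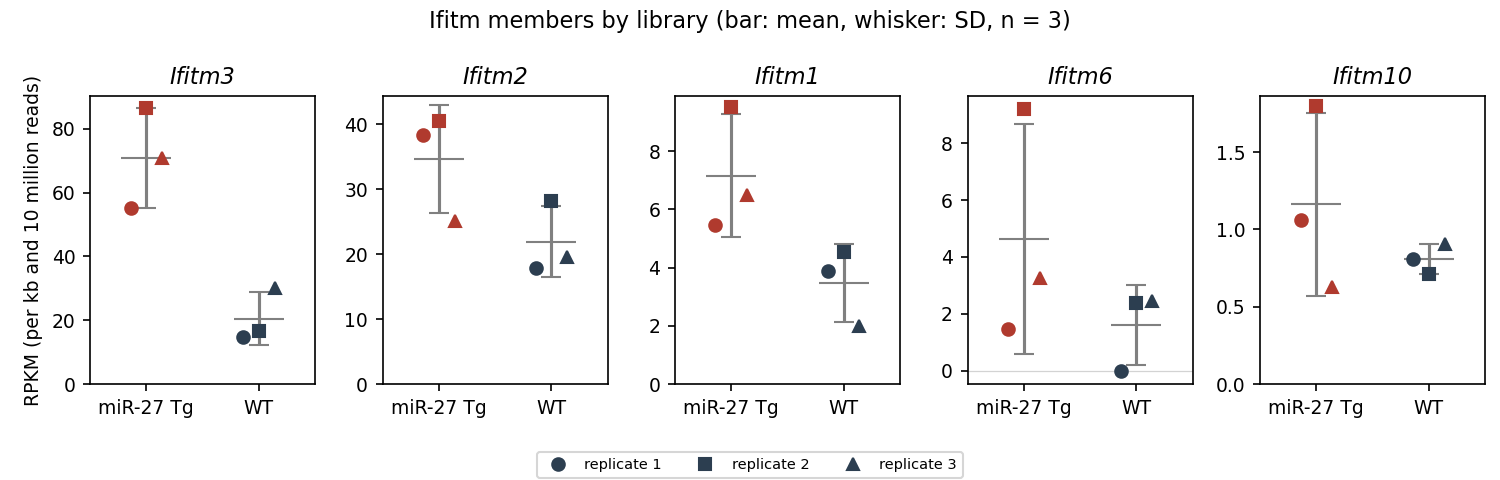
RPKM of each member in every library, miR-27 Tg on the left and WT on the right of each panel; points are libraries, the bar is the mean and the whisker the SD (n = 3), and each panel has its own axis. The groups do not overlap for Ifitm3 (55.0 to 86.6 against 14.8 to 30.1) and Ifitm1 (5.48 to 9.52 against 1.98 to 4.55), and they overlap for Ifitm2, Ifitm6 and Ifitm10.

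Over the members, 1 of the 4 tested rose, 0 fell and 3 did not pass, where 0.374% of all genes tested rose, 0.653% fell and 1.03% changed in either direction. For 2 of the 4, Ifitm3 and Ifitm1, every miR-27 Tg library was above every WT library, as it was for 6.84% of all genes tested. All 4 had a log2 fold change above 0, as did 47.1% of all genes. The median over the 4 was 0.97, against -0.013 over all genes tested. These members passed the filter on their mean over all libraries, Ifitm10 did not, and the count of 4 is therefore not a count of all members.

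The order of the levels differed between the groups in its first places. In miR-27 Tg the mean RPKM was highest for Ifitm3 (70.8), then Ifitm2 (34.7), Ifitm1 (7.16), Ifitm6 (4.64) and Ifitm10 (1.16). In WT it was 21.9 RPKM for Ifitm2, 20.5 for Ifitm3, 3.47 for Ifitm1, 1.61 for Ifitm6 and 0.809 for Ifitm10. In miR-27 Tg every library had more Ifitm3 than the highest Ifitm2 value, while Ifitm1 and Ifitm6, and Ifitm6 and Ifitm10, overlapped. In WT Ifitm2 and Ifitm3 overlapped, as did Ifitm1 and Ifitm6, and Ifitm6 and Ifitm10. Ifitm3 made up 54.3%, 58.6% and 66.6% of the summed member RPKM in miR-27 Tg replicates 1 to 3, against 39.5%, 31.7% and 54.7% in WT replicates 1 to 3, so these shares overlapped by a small margin. The ratio of Ifitm3 to Ifitm2 was 1.44, 2.13 and 2.81 in miR-27 Tg and 0.823, 0.589 and 1.54 in WT, again overlapping through miR-27 Tg replicate 1 and WT replicate 3. In all, the 5 members summed to 101, 148 and 106 RPKM in miR-27 Tg and to 37.4, 52.4 and 55.0 RPKM in WT.

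Other genes of the family and its domain were mostly low or did not pass. Ifitm5, a bone protein encoded beside Ifitm2, had 1.49, 2.06 and 0 RPKM in miR-27 Tg and 0.337, 1.08 and 0.376 RPKM in WT, and Ifitm7 was listed at 0 in every library. Ifitm4p was not matched. Of 9 symbols listed for relatives with the same CD225 domain 8 were matched, 4 were tested, and 1 fell. Prrt1, a synaptic membrane protein, had 9.75, 15.85 and 14.6 RPKM in miR-27 Tg, against 30.4, 32.2 and 42.3 RPKM in WT (log2 fold change -1.33, SE 0.21, adjusted p = 0.0371 by limma), and the groups did not overlap. The call of Prrt1 ended with any 1 library left out (adjusted p = 0.0610 to 0.135 by limma). Prrt2 and Tmem265 averaged 91.7 and 114.7 RPKM in miR-27 Tg and 92.9 and 115.4 RPKM in WT, with exons of other genes covering 95.4% and 100% of their bases.

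Of 12 genes for proteins that modify or bind IFITM proteins, roles known mostly from human IFITM3, 0 passed by limma, with 2 at an unadjusted p below 0.05. Zdhhc20, which attaches palmitate, averaged 405 ± 33.2 RPKM in miR-27 Tg and 452 ± 38.2 RPKM in WT, and the kinase Fyn 938 ± 77.9 and 1036.5 ± 8.11 RPKM, with every miR-27 Tg library below every WT library (adjusted p = 0.583 by limma). For 2 genes, named after their values were seen, every miR-27 Tg library was above every WT library, as for 6.84% of all genes tested (18.5% did not overlap in either direction). Nedd4, a ubiquitin ligase that marks IFITM3 for degradation, had 10.8, 15.0 and 16.3 RPKM in miR-27 Tg and 5.75, 5.35 and 9.28 RPKM in WT (adjusted p = 0.137 by limma). Cd9, a tetraspanin, had 306, 296 and 357 RPKM in miR-27 Tg and 245, 248 and 236 RPKM in WT (adjusted p = 0.123 by limma).

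Of the interferons upstream of the members, those of type I and type III were at or near 0, and Ifng was not. Of 9 interferon genes 7, among them Ifnb1, Ifna1 and Ifnl2, were listed at 0 in all 6 libraries, and Ifnk reached at most 1.78 RPKM. Ifng, the type II interferon, fell to 28.3 ± 5.05 RPKM in miR-27 Tg, against 65.0 ± 13.2 RPKM in WT (log2 fold change -1.17, adjusted p = 0.0343 by limma), and exons of a predicted gene cover 20.6% of its bases. Its call held in 1 of the 6 fits with a library left out (adjusted p = 0.0491 to 0.134 by limma). Of 8 receptors and kinases tested 0 passed by limma, with 1 at an unadjusted p below 0.05, with Jak1 at 1349 ± 78.9 RPKM in miR-27 Tg and 1334 ± 20.1 RPKM in WT, and Ifngr1 at 584 ± 148 and 635 ± 43.7 RPKM.

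Of 11 interferon transcription factors and feedback inhibitors 1 rose and 0 fell. Stat2 had 296, 353 and 311 RPKM in miR-27 Tg and 191, 202 and 206 RPKM in WT (log2 fold change 0.68, adjusted p = 0.0258 by limma). The Stat2 groups did not overlap. The call of Stat2 ended with any 1 library left out (adjusted p = 0.0566 to 0.101 by limma). Irf1 averaged 1393 ± 74.0 RPKM in miR-27 Tg and 1222 ± 88.6 RPKM in WT (adjusted p = 0.460 by limma). Besides Stat2 and Irf1, the groups did not overlap for Irf7, Irf9 and Socs1, named after their values were seen, each higher in miR-27 Tg. Thus 5 of the 11 did not overlap and were higher, beside 6.84% of all genes tested. At an unadjusted p below 0.05 by limma were 5 of the 11, beside 1773 of all 13621 genes tested. The median log2 fold change of the 11 was 0.23.

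Among 30 other antiviral interferon-induced genes (Bst2, Isg15, Isg20, Mx1, Mx2, the Ifit, Oas and Oasl genes and others), 29 were tested, 3 rose, 0 fell and 26 did not pass, with 28 fold changes above 0 and a median of 0.56. Of the 29, 22 were at an unadjusted p below 0.05 by limma, as were 1773 of all 13621 genes tested. For 17 of the 29 every miR-27 Tg library was above every WT library, beside the 6.84% of all genes given above. The 3 that rose belong to the oligoadenylate synthetase family of double-stranded RNA sensors. Oas2 averaged 193 ± 18.9 RPKM in miR-27 Tg and 44.2 ± 4.58 RPKM in WT (log2 fold change 2.11, adjusted p = 0.000683 by limma). Oas3 averaged 105 ± 25.2 RPKM in miR-27 Tg and 52.3 ± 2.89 RPKM in WT (0.97, adjusted p = 0.0491 by limma), and Oasl2 94.4 ± 28.2 and 38.9 ± 5.93 RPKM (1.23, adjusted p = 0.0453 by limma). Oas2 kept its call in all 6 fits with a library left out (adjusted p = 0.00316 to 0.0160 by limma), and Oas3 and Oasl2 in 0 of the 6 (0.0703 to 0.175 and 0.0566 to 0.155). The antiviral genes with the highest levels, Ly6e and Ifi27l2a, averaged 3670 and 3213 RPKM in miR-27 Tg and 3832 and 2086 RPKM in WT (adjusted p = 0.871 and 0.212 by limma). Placed in order with these 29 by log2 fold change, Ifitm3 came 2 of 33, Ifitm6 came 6, Ifitm1 came 11 and Ifitm2 came 17.

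**Figure D3:**
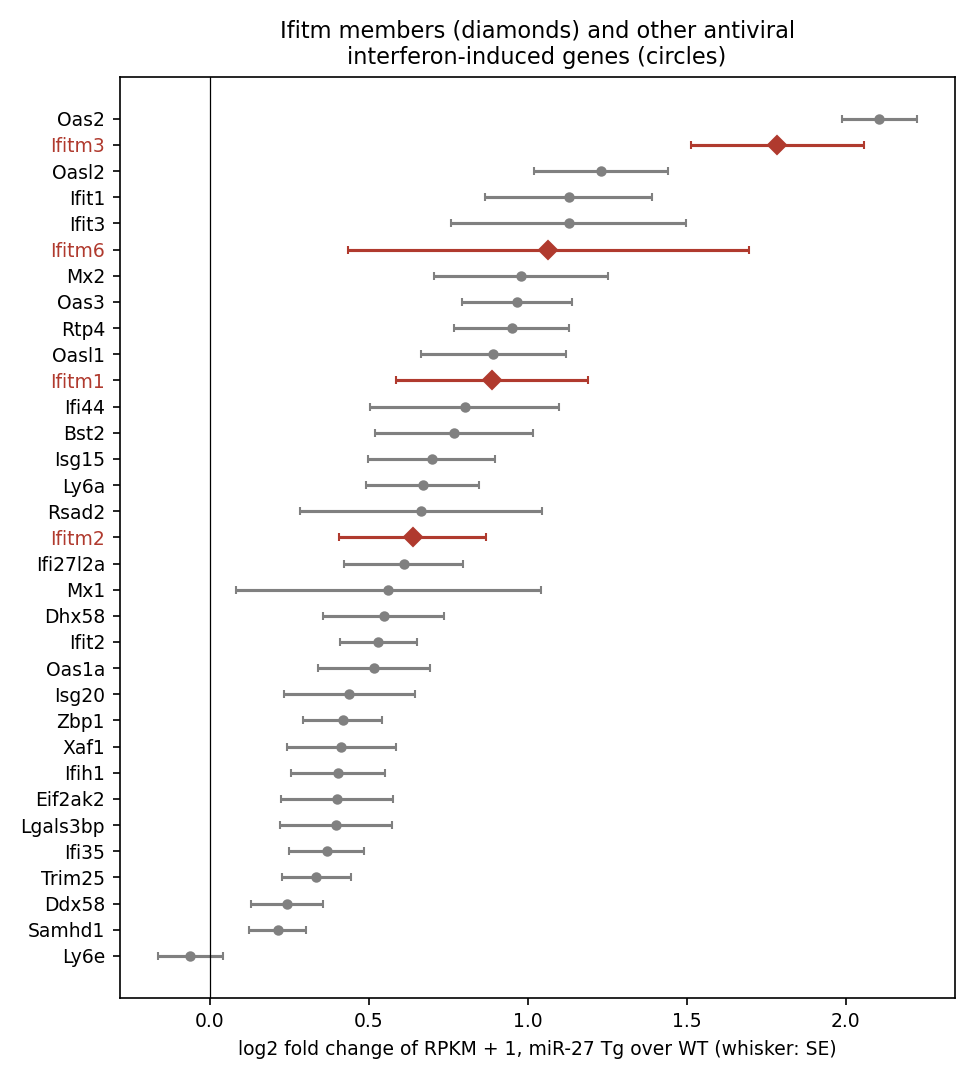
Log2 fold change of RPKM + 1, miR-27 Tg over WT, for the 4 tested members (diamonds) and 29 other antiviral interferon-induced genes (circles); whiskers are the SE. Oas2 (2.11) and Ifitm3 (1.78) stand at the top, Ifitm1 (0.89) and Ifitm2 (0.64) lie among the others, Ifitm6 (1.06) has the widest whisker, and Ly6e (-0.06) alone lies below 0.

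Among the genes beside the members 1 call was made, in the other direction from Ifitm3. Of 19 other genes with a start within 100 kb of a member 11 were tested, 0 were higher and 1 was lower by limma, and 6 had a fold change below 0. B4galnt4, a glycosyltransferase gene 44.4 kb from Ifitm6, had 38.7, 51.5 and 50.2 RPKM in miR-27 Tg, against 80.3, 88.7 and 112.7 RPKM in WT (log2 fold change -0.99, adjusted p = 0.0404 by limma), a call that ended with any 1 library left out (0.0723 to 0.131). Athl1, 14.4 kb from Ifitm2, averaged 97.0 RPKM in miR-27 Tg and 112.6 RPKM in WT (adjusted p = 0.616 by limma). Near Ifitm10, Ctsd, the lysosomal protease cathepsin D, averaged 918 and 887 RPKM (adjusted p = 0.917 by limma).

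**Figure D4:**
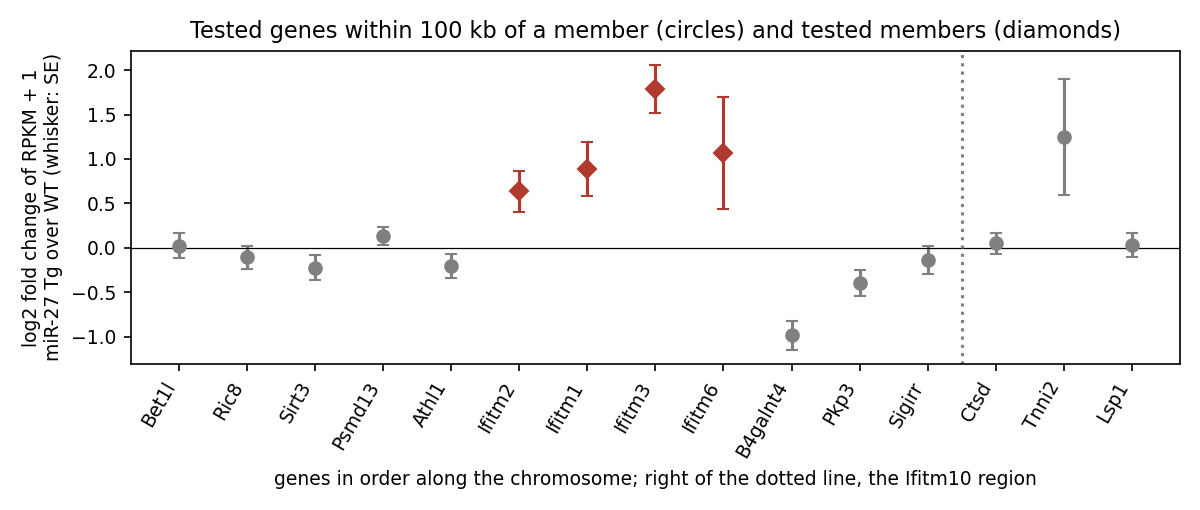
Log2 fold change of RPKM + 1, miR-27 Tg over WT, for the tested members (diamonds) and the 11 tested genes within 100 kb of a member (circles), in their order along the chromosome; whiskers are the SE. The 4 members lie above 0 between Athl1 (-0.21) and B4galnt4 (-0.99), and Tnni2 (1.25, SE 0.66) is a low gene of 0.361 to 7.93 RPKM.

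Markers of cells outside the sort moved with some of these values. In bulk RNA, a different number of cells of a type and a different amount of RNA per cell cannot be told apart. Of 20 tested markers of myeloid cells and neutrophils (22 listed, none at 0 in all libraries), Itgam rose, 0 fell and 19 did not pass by limma, 13 were at an unadjusted p below 0.05 (1773 of 13621 over all genes tested), and the median log2 fold change was 1.17. The fold change was above 0 for 17 and below 0 for 3. Among the 13, Mmp9, named after its values were seen, was lower in miR-27 Tg. It averaged 6.13 ± 2.97 RPKM there and 17.2 ± 8.62 RPKM in WT (log2 fold change -1.32, adjusted p = 0.200 by limma). Itgam, the integrin chain CD11b, had 16.0, 17.1 and 16.2 RPKM in miR-27 Tg and 4.40, 3.94 and 4.91 RPKM in WT (adjusted p = 0.0118 by limma), and exons of a predicted gene cover 73.7% of its bases. Its call held in 3 of the 6 fits with a library left out, and ended without miR-27 Tg replicate 3, WT replicate 1 or WT replicate 3 (adjusted p up to 0.0703 by limma). The summed level of the list was 911 to 2562 RPKM in miR-27 Tg and 796 to 1293 RPKM in WT, with Lyz2 at 367 ± 156 and 167 ± 97.7 RPKM, and Cst3 at 369 ± 78.0 and 373 ± 66.6 RPKM.

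Markers of plasmacytoid dendritic cells, known as strong producers of type I interferon, overlapped between the groups for every gene listed. Of 8 markers 0 passed by limma, 0 were at an unadjusted p below 0.05 and the median log2 fold change was 0.98. The highest, Ccdc88b and Pacsin1, averaged 429 and 165 RPKM in miR-27 Tg and 419 and 180 RPKM in WT. Siglech, a receptor typical of these cells and named after its values were seen, had 27.4, 330.5 and 153 RPKM in miR-27 Tg replicates 1 to 3 and 14.4, 64.4 and 119 RPKM in WT replicates 1 to 3. The mean log2(RPKM + 1) of the list was 4.68, 6.90 and 6.08 in miR-27 Tg and 4.08, 5.15 and 5.91 in WT, and its summed level was 697 to 1323 RPKM and 665 to 895 RPKM. Ccdc88b and Pacsin1 made up most of that sum in every library except miR-27 Tg replicate 2, so it says little of the other markers.

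Ifitm3 and Ifitm6 were set beside these levels. Within each group, the libraries had the same order by Ifitm3 as by the dendritic cell marker level. Between the groups they did not. In miR-27 Tg replicate 1 the dendritic cell marker level was 4.68 and Ifitm3 was at 55.0 RPKM, against 5.15 and 16.6 RPKM in WT replicate 2 and 5.91 and 30.1 RPKM in WT replicate 3. With that level as a covariate, an alternative added after seeing the data, the log2 fold change of Ifitm3 was 1.47 (adjusted p = 0.0205 by limma) and that of Ifitm6 was 0.28 (adjusted p = 0.797 by limma). The 6 libraries had the same order by Ifitm6 as by the dendritic cell marker level. The mean log2 level of the myeloid and neutrophil markers was 4.14, 5.33 and 4.57 in miR-27 Tg and 3.81, 3.12 and 3.74 in WT, so it separates the groups, and with it as a covariate Ifitm3 was at 1.24 (SE 0.42, adjusted p = 0.775 by limma). The part of these cells in the level of Ifitm3 was not tested beyond these values.

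**Figure D5:**
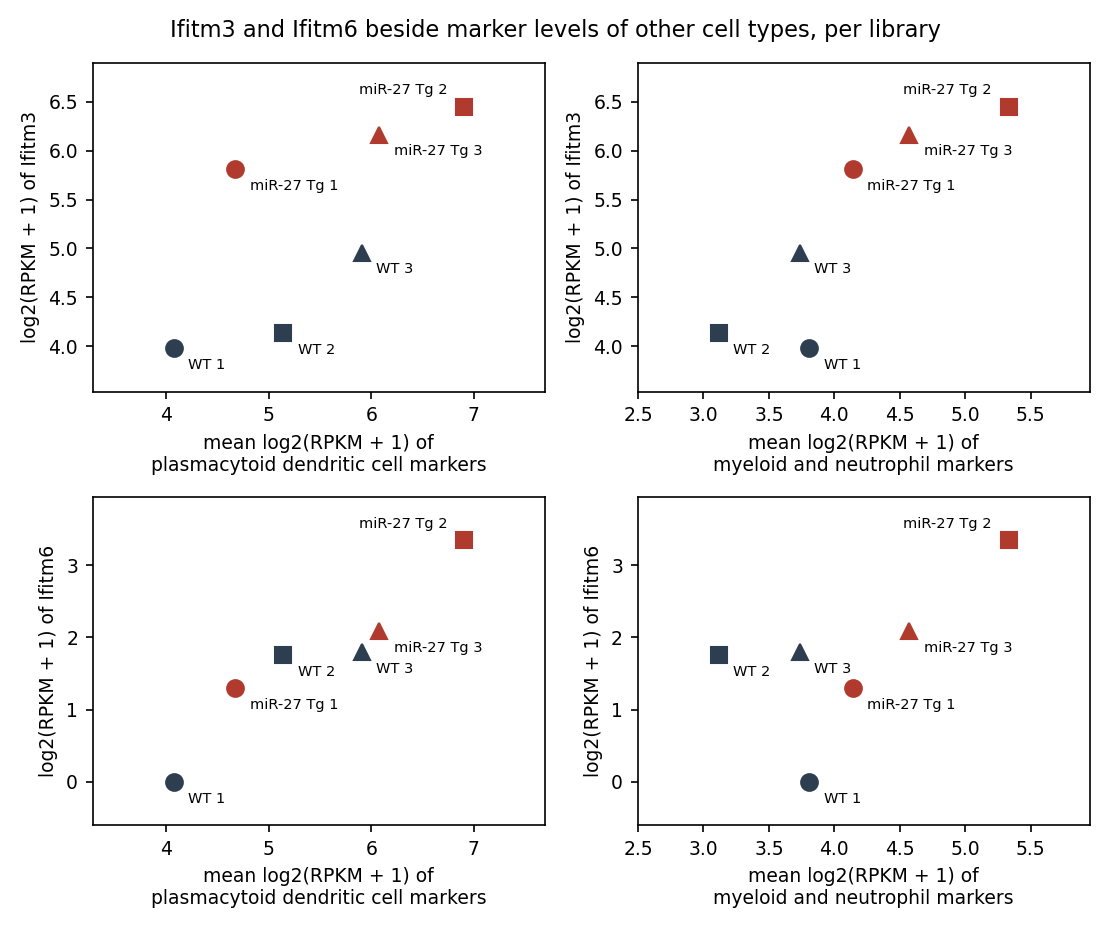
Log2(RPKM + 1) of Ifitm3 (top) and Ifitm6 (bottom) in each library against the mean log2(RPKM + 1) of plasmacytoid dendritic cell markers (left) and of myeloid and neutrophil markers (right); red is miR-27 Tg, dark is WT, and symbols are replicates. The myeloid and neutrophil level separates the groups (4.14 to 5.33 in miR-27 Tg, 3.12 to 3.81 in WT), and the dendritic cell level does not (4.68 to 6.90 and 4.08 to 5.91).

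Markers of other cells were tested in the same way. Of 11 B cell markers tested 0 passed by limma, with 1 at an unadjusted p below 0.05. Their log2 fold changes were above 0 for 7 and below 0 for 4, with a median of 0.23. Summed levels were 1013 to 3509 RPKM in miR-27 Tg and 751 to 1657 RPKM in WT. Most of the sum was Cd74 (1350 ± 805 and 705 ± 305 RPKM) and H2-Aa (635 ± 440 and 297 ± 165 RPKM), so it says little of the other markers. Among 10 CD8 T and NK cell markers 2 fell, Xcl1 (8.15 ± 1.59 RPKM in miR-27 Tg, 23.1 ± 2.02 in WT, adjusted p = 0.0238 by limma) and Nkg7 (53.0 ± 5.52 and 102 ± 11.6 RPKM, adjusted p = 0.0257 by limma), with summed levels of 243 to 392 and 324 to 378 RPKM. Each of the pair kept its call in 1 of the 6 fits with a library left out (adjusted p up to 0.0850 for Xcl1 and 0.107 for Nkg7 by limma). The list as a whole had 5 log2 fold changes above 0 and 5 below 0, with a median of 0.025. At an unadjusted p below 0.05 by limma were 6 of the 10, beside 1773 of all 13621 genes tested. Without overlap, 1 of the 10 was higher and 4 were lower in miR-27 Tg, beside 6.84% and 11.6% of all genes tested. Of 6 erythroid and platelet markers 0 passed by limma, with 0 at an unadjusted p below 0.05, with sums of 15.2 to 58.7 RPKM in miR-27 Tg and 23.8 to 73.7 RPKM in WT, Hbb-bs averaging 9.36 and 13.0 RPKM and Itga2b 7.26 and 7.68 RPKM. Of 3 endothelial and stromal markers tested 0 passed by limma, with 1 at an unadjusted p below 0.05. Pecam1, which T cells also carry, averaged 627 and 480 RPKM and Cdh5 8.43 and 3.48 RPKM, while Dcn and Pdgfra were listed at 0 in every library.

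The genes whose pattern over the 6 libraries was most like that of each member were taken from 11203 genes with a mean of at least 5 RPKM, by Pearson's r of log2(RPKM + 1), as a description without a test. For Ifitm3 they were Tubb2b (r = 0.99), Tmem63b (0.99) and Vkorc1l1 (0.99), with log2 fold changes of 0.68, 0.21 and 0.21. For Ifitm2 they included Ano6 (0.99) and Cs (0.98), and for Ifitm1 Ifi203 and Nrm (0.98 each). For Ifitm6 they were Slamf9, Kynu and Pirb (0.98 to 0.99), all at under 30 RPKM. Between members r was 0.54 to 0.76, highest for Ifitm1 and Ifitm2.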

How the data were processed

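RNA was extracted from sorted Treg cells with a kit that keeps small RNAs, made into TruSeq libraries and run on an Illumina instrument, as the labels' protocols state. The authors deposited 1 table of RPKM values for 34711 RefSeq transcripts of mm10, counted by HOMER over exons on both strands and scaled to 10000000 reads per library, per the file headers. STAR 2.2.0c is named in the submitters' processing notes. Because RPKM values are not counts, no count model was used. Read numbers come from low values, on transcripts of 200 to 4000 bases: 100% were whole numbers of reads to within 0.1.

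From these values 24453 symbols were kept with 1 transcript each, of which 13621 reached a mean of 1 RPKM. These were compared on the log2(RPKM + 1) scale in limma 3.58.1 under R 4.3.3 (moderated linear model with intensity trend, two-sided, Benjamini-Hochberg over all genes tested, threshold 0.05), tested on simulated data. Libraries were grouped by title. The members, the gene lists and the tests were chosen with earlier results of these data known. In each list, genes past the threshold and otherwise the 2 with the highest mean were named. Neighbours had a start within 100 kb of a member, and genes of like pattern were those with the 3 highest r. Exon overlap, shared 50-base stretches, coding identity and 3′ UTRs used GENCODE M21 (GRCm38) with Biopython 1.88, and promoters and the microRNA came from RefSeq (GRCm38.p6), which held windows for all 5 members. Alternatives covered the pseudocount, filter, scaling, transcript, weights, trend, replicate block, marker covariates (that of plasmacytoid dendritic cells added after seeing the data) and each library left out. Some genes that these rules name are not reported here.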

Additional observations from a re-analysis of the deposited data

How the results depend on the processing

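Ifitm3, Ifitm1, Ifitm2 and Ifitm6 had log2 fold changes above 0 in every alternative run that gave them a value; Ifitm6 has none with a minimum of 5 RPKM, and Ifitm10 was tested only without the filter (0.22, adjusted p = 0.754). The call of Ifitm3 ended with no filter (1.78, adjusted p = 0.0719), where 18024 genes were tested, with no intensity trend (1.78, adjusted p = 0.0576) and with the myeloid and neutrophil marker level as a covariate (1.24, adjusted p = 0.775), and with each library left out (1.60 to 2.08); the cause was not tested. Over the other alternatives its adjusted p by limma was 0.0175 to 0.0346. Ifitm1, Ifitm2 and Ifitm6 passed in none. Ifitm6 was at 2.09 with a pseudocount of 0.1 and at 0.49 with one of 5. Counts of genes higher and lower, 51 and 89, were 15 and 32 with no filter, 81 and 144 with array weights, and 1 and 0 by limma with the myeloid marker covariate (715 genes had an unadjusted p below 0.05), where Oas2 was at 1.92 (adjusted p = 0.117). With single libraries left out they were 3 to 14 and 1 to 44. With a replicate block they were 91 and 185, and Ifitm3 had adjusted p = 0.0197 by limma. Deviations of equally numbered libraries correlated at 0.37, 0.097 and 0.037 across genes, and those of unequally numbered libraries at -0.222 to 0.154. No label says that equal numbers mark a shared mouse, litter or day, so the main fit did not pair the libraries. Whether equal numbers mark a pairing was not tested further. Counts of under 25 reads per library limit Ifitm1, Ifitm6 and Ifitm10.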
